A study of Mus musculus with 54 samples.

Results

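The comparison followed prieurianin-treated mouse 3T3-L1 preadipocytes from the middle of the first day of exposure to the second day. It set the 3 arrays of the treated arm at 24, 36 and 48 h against its 3 arrays at 9, 12 and 15 h, chosen by their sample titles: 6 of the 54 arrays of the series. The treated cells received 2 µM prieurianin, a plant limonoid. The same step was measured in cells given 0.5% DMSO and in untreated cells described as undergoing normal differentiation, with 6 arrays each at the same hours. All arms were 3T3-L1 cells, a mouse fibroblast line that can turn into fat cells in culture, so the 3 arms share 1 line and have no independent line beside it. The labels do not state whether the prieurianin arm also held DMSO, when a differentiation stimulus was given, or whether each hour was a separate culture. There was 1 array per arm and hour, so the 3 hours of a window stand in for replicates and the p-values measure only the spread between these arrays, which includes true change within a window.

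When quiescent 3T3-L1 cells are induced to differentiate, they re-enter the cell cycle and divide a limited number of times before fat cell genes come on, a phase called mitotic clonal expansion. Entry into S phase is driven by E2F transcription factors, which are freed when cyclin-dependent kinases phosphorylate the retinoblastoma protein, and switches on the genes of the DNA replication machinery. The genes of G2 and mitosis follow some hours later under the MuvB complex with B-Myb and FOXM1. Cells that arrest in G1 hold both sets low.

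The arrays carried the profile of a fibroblast line. On the 18 arrays used, Vim (vimentin) ran from 15.96 to 16 on the log2 scale, Col3a1 from 14.98 to 16, Col1a2 from 14.51 to 15.89 and Thy1 from 13.27 to 14.29, while Fap lay below the filter on dim genes. Of the marker lists of other cell types, 6 of 10 macrophage, 7 of 12 endothelial and epithelial, 5 of 10 skeletal muscle and 4 of 8 brown adipocyte genes passed the filter on dim genes. Their brightest members had medians of 11.47 for Cd14, 9.37 for Cldn4, 9.34 for Des and 8.86 for Dio2. Members of each list fell on both sides of the filter. Among those that did not pass it, medians were 4.65 for Ptprc (leukocytes), 4.64 for Kdr (endothelium) and 4.78 for Epcam (epithelium). They were 4.53 for Myf5 (muscle) and 5.08 for Ucp1 (brown fat). Among those that passed, medians were 8.31 for Itgam, 8.17 for Cd68 and 6.39 for Csf1r (macrophages). They were 8.75 for Pecam1, 7.46 for Tie1 and 6.17 for Vwf (endothelium). Krt19 (epithelium), Myog (muscle) and Cidea (brown fat) had 8.11, 6.43 and 6.14. Summed over its 10 probes, the intensity of the macrophage list ran from 3089 to 3932 in treated cells at 9 to 15 h and from 3466 to 4072 at 24 to 48 h. Summed over 12 genes, that of the fibroblast list ran from 288752 to 305979 and then from 320425 to 363829, and the DMSO arm moved likewise, from 311290 to 338824 and then from 342097 to 363610. Median intensity ran from 95 on the prieurianin array at 48 h to 192 on the DMSO array at 24 h, with saturation of 102 to 162 probes on each. Since the RNA came from whole cultures, fewer cells of a kind and less RNA per cell cannot be told apart.

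Promoters of the cell cycle genes are shown first because they set apart the 2 gene groups that the comparison turned on. RefSeq's promoter table (build GRCm38.p6) held 50 of the 59 DNA replication and S phase genes tested here and 68 of the 83 G2 and mitosis genes tested. In the 250 bases before the gene start, an E2F-type word, searched on either strand with overlaps allowed, stood in 19 of the 50 S phase promoters (38.0%). The first such word was TTGGCGC, another searched for was TTCCCGC, a further one was TTCGCGC, and the last one was TTGCCGC. The share was 9 of 68 (13.2%) for G2 and mitosis, 8.0% over all 27025 promoters of that length, and 12.7% over those of genes tested. A CHR word (TTTGAA or TTCGAA, either strand) stood in 27 of 68 G2 and mitosis promoters (39.7%), 8 of 50 S phase promoters (16%), 17.4% of all and 13.1% of those of genes tested. A CHR word together with CCAAT stood in 23 of 68 (33.8%) and in 7 of 50 S phase promoters (14.0%), against 6.2% of all promoters and 5.1% of those of genes tested. CCAAT by itself was frequent in both groups, in 67.6% of G2 and mitosis and 56.0% of S phase promoters, beside 35.9% of those of genes tested. A match is a description of these letters and not a bound site. The 4 promoters below were chosen after their matches were seen, 1 strand each, 5′ to 3′ towards the gene start. For Rpa2 (a subunit of the single-strand DNA binding protein RPA; chr4:132768110-132768359, plus strand) and Mcm6 (a subunit of the replicative helicase; chr1:128359706-128359955, minus strand) capitals mark E2F-type words, which overlap in pairs in Mcm6. For Ccnb2 (cyclin B2; chr9:70421555-70421804, minus strand) and Top2a (topoisomerase II alpha, which untangles chromosomes for mitosis; chr11:99024190-99024439, minus strand) capitals mark CHR words and CCAAT.
Rpa2: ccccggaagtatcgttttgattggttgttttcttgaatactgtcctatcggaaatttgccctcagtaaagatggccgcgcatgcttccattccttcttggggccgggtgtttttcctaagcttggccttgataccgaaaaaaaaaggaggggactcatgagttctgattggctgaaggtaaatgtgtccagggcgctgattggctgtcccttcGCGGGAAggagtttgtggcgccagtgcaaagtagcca
Mcm6: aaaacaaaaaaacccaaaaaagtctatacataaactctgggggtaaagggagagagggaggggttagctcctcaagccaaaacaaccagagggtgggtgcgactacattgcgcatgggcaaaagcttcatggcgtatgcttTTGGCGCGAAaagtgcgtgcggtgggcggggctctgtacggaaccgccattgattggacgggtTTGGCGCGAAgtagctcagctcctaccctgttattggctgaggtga
Ccnb2: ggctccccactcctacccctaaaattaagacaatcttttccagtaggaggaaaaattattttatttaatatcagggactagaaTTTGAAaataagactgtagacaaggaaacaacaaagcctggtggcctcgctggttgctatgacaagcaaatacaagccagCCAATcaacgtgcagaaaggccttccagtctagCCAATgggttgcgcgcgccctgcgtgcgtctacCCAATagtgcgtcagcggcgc
Top2a: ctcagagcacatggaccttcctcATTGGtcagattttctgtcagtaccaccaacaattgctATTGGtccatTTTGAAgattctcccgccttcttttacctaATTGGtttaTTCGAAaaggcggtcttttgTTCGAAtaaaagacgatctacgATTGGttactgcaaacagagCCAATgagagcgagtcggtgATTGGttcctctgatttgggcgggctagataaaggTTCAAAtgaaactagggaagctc

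Between 9-15 h and 24-48 h many genes changed in treated cells, in both directions. Genes were tested with limma on quantile-normalised log2(value + 16) values, with 1 mean per arm and window over the 18 arrays, and called at a Benjamini-Hochberg adjusted p under 0.05. Of 12792 genes, 1341 were called in the prieurianin step, 691 higher at 24 to 48 h (5.4% of all genes) and 650 lower (5.08%), and 428 of them moved by over 2-fold. The DMSO step called 238 higher (1.86%) and 443 lower (3.46%), and the untreated step 235 higher (1.84%) and 285 lower (2.23%). The difference of steps, the treated step minus the mean step of both control arms, was called for 83 genes with a more positive step in treated cells (0.649%) and 164 with a more negative one (1.28%). The median over all genes was -0.01 for the treated step and 0.02 for the difference.

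These counts, and their order between arms, depended on how the arrays were scaled and on single arrays. With the values as deposited the untreated step had 1265 calls and the treated step 865. Without the prieurianin array at 48 h the treated step had 513, the DMSO step 737 and the untreated step 621. Centring each array on its median gave 490 calls in the prieurianin step, 65.5% of them higher against 51.5% with quantile normalization, and of the 865 calls with the values as deposited 44.2% were higher. The DMSO step had 34.9% of its calls higher, against 4.9% with median centring, and the untreated step 45.2% higher, against 6.2% as deposited. Of the calls in the difference of steps 33.6% were positive, with 43.8% of 16 under median centring and 44.1% of 68 as deposited. Median centring moved the median of all genes to 0.18 in the difference and to -0.18 in the DMSO step, and the values as deposited moved it to -0.31 in the untreated step. Leaving out the prieurianin array at 12, 36 or 48 h left 580, 875 and 513 calls in the treated step. For the difference, leaving out prieurianin 12 h left 82 calls, 24 h left 118, 15 h left 152 and 48 h left 159. Leaving out the untreated array at 12 h left 142, DMSO 12 h left 141 and DMSO 15 h left 152. With matched time as a block the difference called 680 genes, 51.2% of them positive.

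Most genes called in the treated step were not called in the control steps. Of the 691 genes that rose in treated cells 109 also rose in DMSO cells, 103 in untreated cells and 73 in both. Of the 650 that fell, 129 also fell in DMSO cells, 87 in untreated cells and 73 in both. In the opposite direction, 2 rises were falls in a control step and 9 falls were rises. A call in 1 arm and not in another does not show that the steps differ. By the difference of steps itself, 167 of the genes called in the treated step also differed from the control step, 47 of them positive and 120 negative.

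**Figure D1:**
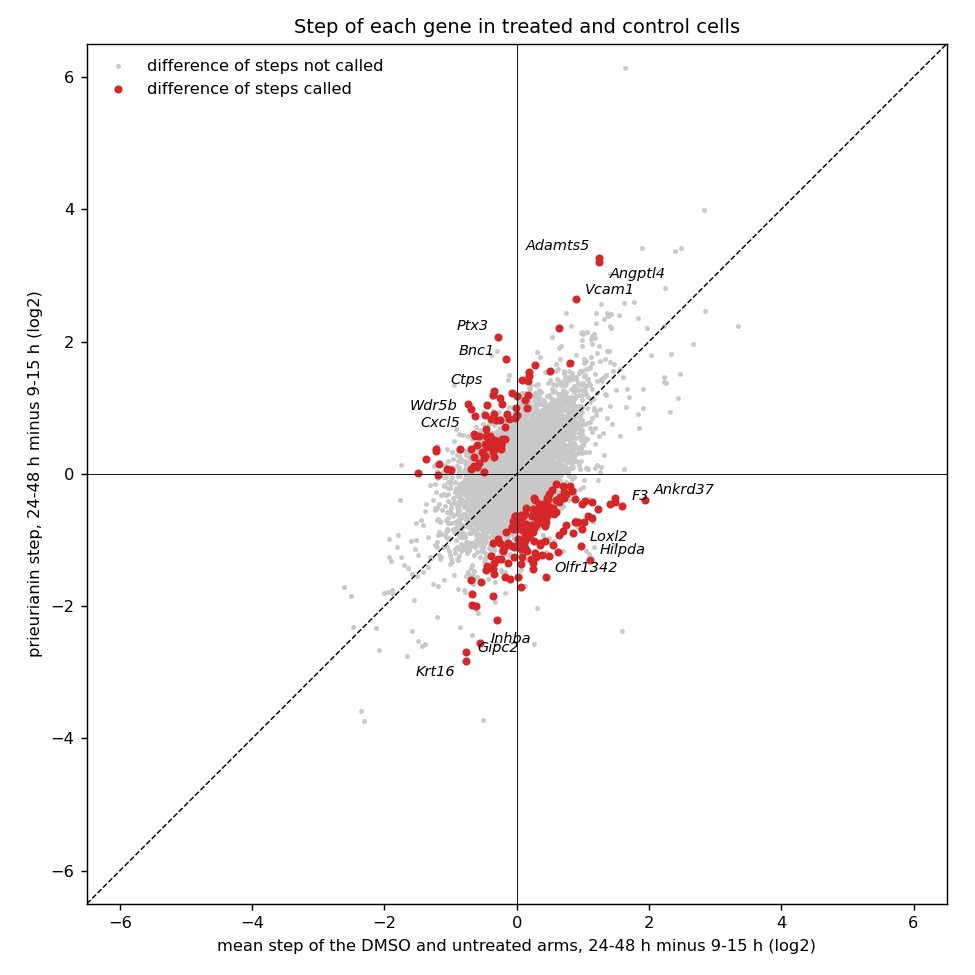
Step from 9-15 h to 24-48 h of each of 12792 genes (log2 difference), the mean of the DMSO and untreated steps on the horizontal axis and the prieurianin step on the vertical axis. Red points are the 247 genes whose difference of steps was called (limma adjusted p under 0.05), and the dashed line marks equal steps; more red points lie below the line (164) than above it (83).

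DNA replication genes stood low in treated cells through 9 to 15 h and were highest at 24 h, when both control arms were already past their highest values. The mean level of 59 S phase genes (of 62 on the list) was 10.89, 10.81 and 10.75 on the log2 scale at 9, 12 and 15 h in prieurianin, then 11.46, 11.18 and 10.73 at 24, 36 and 48 h. In DMSO it was 11.37, 11.81 and 11.94, then 11.46, 11.14 and 10.88, and in untreated cells 11.33, 11.77 and 11.91, then 11.56, 11.05 and 10.77. At 5 h the 3 arms were alike, at 10.65 in prieurianin, 10.68 in DMSO and 10.61 in untreated cells. The treated array at 24 h thus stood at the level of the control arrays at the same hour, while those at 9 to 15 h lay below every control array of those hours.

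The time of the highest array separated the arms gene by gene. From 5 to 48 h, 50 of the 59 S phase genes were highest at 24 h in prieurianin, beside 1163 of all 12792 genes. In DMSO 43 were highest at 15 h and 14 at 12 h, beside 1254 and 1310 of all genes. In untreated cells 39 were highest at 15 h, 14 at 12 h and 5 at 24 h, beside 1463, 941 and 1451 of all genes. The treated 24 h array lay above all 3 treated arrays at 9 to 15 h for 55 of the 59 genes, beside 27.3% of all genes. The same held for 2 of 59 in DMSO, beside 33.3% of all genes, and for 5 of 59 in untreated cells, beside 29%. These 24 h values are single arrays with no replicate.

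Averaged over the windows the rise was small, because the treated level had come down again by 48 h. The median step of the S phase list was 0.26 in prieurianin, -0.52 in DMSO and -0.51 in untreated cells, and without the prieurianin array at 24 h the treated median was 0.11. In the treated step 1 of the 59 genes was called higher and 0 lower, against 7 lower in the DMSO step and 5 lower in the untreated step. Those control falls numbered 8 and 0 with median centring and 0 and 16 as deposited, with all medians below 0. With 1 array left out they ran from 0 (without DMSO 9 h) to 12 (without DMSO 24 h) in DMSO and from 0 (without untreated 12 h) to 19 (without untreated 24 h) in untreated cells. The arrays at 24 to 48 h lay wholly above those at 9 to 15 h for 14 genes, where 15.8% of all genes did so, and wholly below for 0, where 14.4% of all genes did. The difference of steps had a median of 0.86 over the list and was called positive for 3 genes, with 43 at an unadjusted p under 0.05; with matched time as a block 28 were called. With 1 array left out 2 to 9 were called, 9 without the untreated array at 24 h, 7 without DMSO 24 h or prieurianin 48 h, and 5 without untreated 9 h. Neither median centring nor the values as deposited left an S phase call in the treated step or the difference, although the median of the difference was 1.10 and 1.03 there.

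Timeless, which protects replication forks, was the S phase gene called in the treated step. Its treated values were 10.03, 9.81 and 9.71 at 9, 12 and 15 h and 10.87, 10.64 and 10.26 at 24, 36 and 48 h, all 3 later arrays above the earlier ones. It rose by 0.74 ± 0.23 (SE; limma adjusted p = 0.048), a call lost when any 1 of the 6 prieurianin arrays was left out. Tk1, the thymidine kinase of the S phase salvage pathway, read 11.05, 10.92 and 11.00 and then 12.74, 11.98 and 11.77 in treated cells. In DMSO cells it read 12.03, 12.76 and 13.31 and then 12.97, 12.17 and 11.89. The treated arrays at 9 to 15 h lay below all DMSO arrays, those at 24 and 36 h were within the DMSO range and that at 48 h just below it. Its step of 1.17 ± 0.37 did not pass the test (adjusted p = 0.053), and a second Tk1 probe gave 0.57. Lig1, the ligase that joins Okazaki fragments, read 10.70, 10.63 and 10.71 and then 12.02, 11.70 and 11.36 without overlap, and its step of 1.01 did not pass either (adjusted p = 0.12). Gmnn, Rfc2, Rfc4 and Prim1, a licensing inhibitor, parts of the clamp loader and a primase subunit, had steps of 0.53, 0.54, 0.69 and 0.78, none of them called.

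The 3 S phase genes whose step differed from the control step were Rpa2, Ccne1 and Ccne2; both cyclins are named because the count is small, after their values were seen. Rpa2, whose promoter is printed above, read 11.66, 11.26 and 11.44 and then 12.17, 12.10 and 11.80 in treated cells. In untreated cells it read 12.46, 12.77 and 12.87 and then 12.00, 12.22 and 11.69, the later arrays all lower. Its treated step of 0.57 did not pass the test (adjusted p = 0.059), it fell by 0.73 in untreated cells (adjusted p = 0.038), and its difference of steps was 1.19 ± 0.22 (adjusted p = 0.012). Ccne1, cyclin E1, which drives the G1 to S transition, read 9.45, 9.22 and 9.31 and then 9.93, 9.89 and 9.23 in treated cells. It read 10.61, 11.10 and 11.30 and then 9.87, 10.06 and 9.24 in untreated cells. It fell by 1.28 there (adjusted p = 0.015), and the difference was 1.58 (adjusted p = 0.011), while the treated step of 0.35 did not pass the test (adjusted p = 0.39). Ccne2, cyclin E2, had a treated step of -0.02 (adjusted p = 0.98), and its difference of 1.17 (adjusted p = 0.04) came with untreated values of 10.69, 11.40 and 11.40 and then 10.18, 10.09 and 9.95.

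Mcm6, named for its promoter after its values were seen, read 13.18, 13.06 and 12.98 in treated cells at 9 to 15 h, 13.70 and 13.44 at 24 and 36 h and 12.77 at 48 h, the lowest of the 6. Untreated cells reached 14.31 at 15 h and DMSO cells 14.17. The treated 24 h array stood above the treated arrays before it and below the highest control arrays, and the step of 0.23 did not pass the test (adjusted p = 0.69).

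Set against the level that control cells had at 9 to 15 h, the S phase level of treated cells at 24 to 48 h was lower. This lag contrast called 998 of all genes higher (7.8%) and 1022 lower (7.99%), with 49.4% higher, against 57.5% of 680 with median centring and 17.4% of 2372 as deposited. Of the S phase list 0 genes were higher and 19 lower, with a median of -0.58. At matched hours 9 to 15, a contrast added later, prieurianin differed from the mean of the control arms at 1127 genes higher (8.81%) and 1188 lower (9.29%), with 43 of the 59 S phase genes lower (median -0.88). At 24 to 48 h the arms differed at 189 genes higher (1.48%) and 37 lower (0.289%). There no S phase gene was called by limma, 2 had an unadjusted p under 0.05, both higher in treated cells, and the list median was -0.04.

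The control arms had made their own S phase change earlier. From 2-5 h to 9-15 h, 2036 genes rose in the control arms (15.9%) and 1698 fell (13.3%), 54.5% of them higher, against 42.9% with median centring and 87% as deposited. Of the S phase genes 54 of 59 rose, with a median of 1.11, and none was called lower. Over all genes, 162 of the 691 genes that rose in the later treated step had risen in that earlier control step, 23.4% of the treated rises and 7.96% of the control rises. A further 132 had fallen in it, 19.1% of the treated rises. Of the 650 treated falls, 261 had fallen in the earlier control step (40.2% of the treated falls, 15.4% of the control falls) and 52 had risen (8%). The 2 steps share no array.

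**Figure D2:**
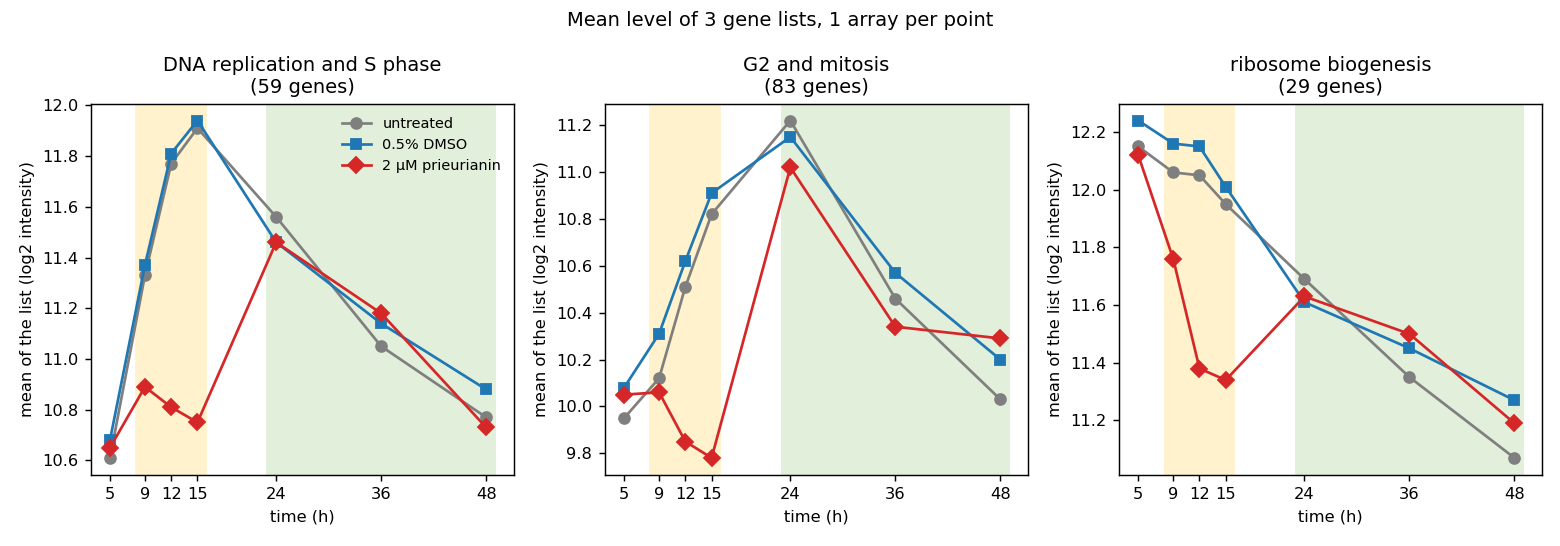
Mean log2 level of 59 DNA replication and S phase genes, 83 G2 and mitosis genes and 29 ribosome biogenesis genes on each array from 5 to 48 h, 1 line per arm and 1 point per array. Yellow and green bands mark 9-15 h and 24-48 h. The S phase line of the prieurianin arm is flat near 10.8 until 15 h and highest at 24 h (11.46), and the control lines are highest at 15 h (11.91 and 11.94).

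Genes of G2 and mitosis also stood low in treated cells at 9 to 15 h, and they were highest at 24 h in all 3 arms. The mean level of 83 genes (of 90) was 10.06, 9.85 and 9.78 in prieurianin, then 11.02, 10.34 and 10.29. In DMSO it was 10.31, 10.62 and 10.91, then 11.15, 10.57 and 10.20, and in untreated cells 10.12, 10.51 and 10.82, then 11.22, 10.46 and 10.03. The control arms climbed through 9 to 15 h towards 24 h, while the treated arrays at 12 and 15 h were the lowest of the 18. The highest array from 5 to 48 h was that at 24 h for 76 of the 83 genes in prieurianin, 63 in DMSO and 67 in untreated cells. Over all 12792 genes these counts were 1163, 2164 and 1451.

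In the treated step 7 of the 83 G2 and mitosis genes were called higher, where 5.4% of all genes were, and 0 lower, with a median of 0.66. The DMSO and untreated steps called none, with 2 genes at an unadjusted p under 0.05 in each direction in DMSO and 3 higher and 2 lower in untreated cells. The treated arrays at 24 to 48 h lay wholly above those at 9 to 15 h for 49 of the 83 genes, beside 15.8% of all genes, and wholly below for 1, beside 14.4%. The median of the difference of steps was 0.63, but limma called no gene of the list in it, 14 positive and 1 negative at an unadjusted p under 0.05. With matched time as a block 6 were called positive. The number called in the treated step was 2 without the array at 12 or 15 h, 3 without 24 or 48 h, 5 without 36 h and 6 without 9 h. The median was 0.43 without the 24 h array, and with median centring and the values as deposited it was 0.76 and 0.61 with 5 and 2 calls. At 9 to 15 h prieurianin lay below the control arms at 20 of the 83 genes, and at 24 to 48 h at none, where limma called no gene and 2 higher and 1 lower had an unadjusted p under 0.05.

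Knstrn, a kinetochore and spindle protein, gave the smallest p of the list. It read 10.23, 10.40 and 10.62 and then 12.11, 11.44 and 11.75 in treated cells, with no overlap. It rose 2.55-fold (1.35 ± 0.28 in log2; adjusted p = 0.0065), and a second probe gave 1.33. No alternative run for that gene lost the call. Its steps of 0.72 in DMSO and 0.74 in untreated cells were not called. Ccnb2, the mitotic cyclin whose promoter is printed above, read 10.34, 10.21 and 10.36 and then 12.04, 11.08 and 11.51 in treated cells. In DMSO cells it read 10.57, 10.78 and 11.49 and then 12.30, 11.84 and 11.36. The treated arrays separated by window, and the DMSO arrays at 15 and 48 h overlapped. It rose 2.36-fold in treated cells (1.24 ± 0.33; adjusted p = 0.025), while its difference of steps of 0.37 did not pass the test (adjusted p = 0.71). The rise was not called without the prieurianin array at 9, 12, 15, 24 or 48 h.

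Top2a read 11.32, 11.25 and 10.87 and then 12.53, 12.18 and 11.97 in treated cells, the later arrays all higher. In DMSO cells it read 12.30, 12.88 and 12.85 and then 12.98, 12.67 and 12.44. Only the treated array at 24 h lay within that range, and those at 36 and 48 h lay below it. Top2a rose by 1.08 ± 0.27 in treated cells (adjusted p = 0.021), a call lost without the treated array at 12, 15, 24 or 36 h. Spc24, a part of the Ndc80 kinetochore complex, read 9.06, 8.93 and 8.62 and then 10.44, 9.84 and 10.06. It rose by 1.24 ± 0.32 (adjusted p = 0.021). Bub1b, the checkpoint kinase BubR1, read 10.43, 10.45 and 10.08 and then 11.96, 11.13 and 11.43. It rose by 1.18 ± 0.31 (adjusted p = 0.024), and both calls were lost without the treated array at 12, 15, 24 or 48 h. Psrc1, a microtubule-binding protein of the spindle, read 9.83, 9.15 and 8.95 and then 10.20, 9.97 and 10.83, and rose by 1.02 ± 0.22 (adjusted p = 0.0077). Smc4, a condensin subunit, rose by 0.72 (adjusted p = 0.047), a call lost in 17 alternatives, and Kif20a, a kinesin of cell division, missed the threshold at 0.56 (adjusted p = 0.059).

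Regulators of G1 moved in both directions. Of 24 such genes the DMSO and untreated steps each called 2 higher and 2 lower. In the treated step 3 were called higher and 1 lower, with a median of -0.03 that became 0.07 with median centring. Cdkn1a, the CDK inhibitor p21, read 14.86, 14.59 and 14.53 and then 13.96, 13.86 and 13.62, all later arrays lower. It fell by 0.85 ± 0.15 (adjusted p = 0.0024), a call lost with median centring. Cdkn2c, the CDK4 and CDK6 inhibitor p18, rose by 1.11 ± 0.21 (adjusted p = 0.0042), and Rbl2, the pocket protein p130, by 0.68 (adjusted p = 0.019). Cdkn2b, the inhibitor p15, rose by 0.63 (adjusted p = 0.025), a call lost with both other scalings and without the treated array at 9, 12 or 48 h; that of Rbl2 was lost without 9, 36 or 48 h. Among 17 p53 targets each control step called 0 higher and 1 lower. In treated cells 2 fell and none was called higher, with a median of -0.04 that became 0.08 with median centring. Btg2, an antiproliferative p53 target, read 12.53, 12.18 and 12.24 and then 10.70, 11.23 and 11.28. It fell by 1.25 (adjusted p = 0.0019), and its difference of steps was -1.53 (adjusted p = 0.0064).

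Ribosome biogenesis genes, which rise in cells that grow towards division, stood lower in treated cells than in the controls at 9 to 15 h, and none was called lower in the step that followed. The mean of 29 genes (of 33) was 11.76, 11.38 and 11.34 in prieurianin at 9, 12 and 15 h and 11.63, 11.5 and 11.19 at 24, 36 and 48 h. In DMSO it was 12.16, 12.15 and 12.01, then 11.61, 11.45 and 11.27, and in untreated cells 12.06, 12.05 and 11.95, then 11.69, 11.35 and 11.07. The treated arrays lay below the control arrays through 15 h and near them from 24 h. At 9 to 15 h 13 of the 29 were called below the control arms. limma called no gene of the list in the treated step, with 1 in each direction at an unadjusted p under 0.05 and a median of -0.07 that became 0.06 with median centring. The DMSO step called 10 lower and the untreated step 8 lower, with medians of -0.73 and -0.65. With median centring these falls numbered 10 and 0 and with the values as deposited 0 and 16, with all medians below 0. Leaving out 1 array gave 0 (without DMSO 9 h, or untreated 9 h) to 16 (without DMSO 24 h, or untreated 24 h) in each. The difference of steps was above 0 for 29 of 29 genes, with a median of 0.62. limma called none of them, 16 had an unadjusted p under 0.05, and 9 were called with matched time as a block.

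Genes of glycolysis and the hypoxia response moved the other way in treated and control cells. They include targets of HIF, the factor that accumulates when prolyl hydroxylases such as EGLN1 cannot mark it for breakdown. The mean of 27 genes (of 29) was 12.50, 12.58 and 12.50 in prieurianin at 9 to 15 h, then 12.07, 12.31 and 12.16. In DMSO it was 11.53, 11.42 and 11.42, then 11.78, 12.00 and 11.80, and in untreated cells 11.45, 11.45 and 11.48, then 11.93, 11.94 and 12.15. The treated arrays at 9 to 15 h were the highest of the 18 and did not overlap the control arrays. In the treated step 6 of the 27 genes fell and none was called higher (median -0.30). In the DMSO and untreated steps 6 rose in each and none was called lower (medians 0.38 and 0.50). The difference of steps was called negative for 11 genes, with a median of -0.71; median centring called 1 and the values as deposited 6, with medians of -0.49 and -0.56. The counts of the separate steps shrank too, to 1 fall in treated cells and 1 and 2 rises in DMSO and untreated cells with median centring, and to 4, 1 and 3 as deposited, with each list median on the same side of 0. With 1 array left out the rises numbered 0 (without DMSO 12 h) to 9 in DMSO and 1 (without untreated 12 h) to 9 in untreated cells. Without the prieurianin array at 12 h 2 falls were called in the treated step and 7 in the difference.

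Of the 27 genes, 25 had a promoter in the table. The core of the hypoxia response element, ACGTG, stood on either strand within 250 bases before the start in 14 of 25 (56.0%), beside 16.6% of all promoters and 20.6% of those of genes tested. The promoters of Ankrd37 (an ankyrin repeat gene induced by HIF; chr8:45999851-46000100, minus strand) and Egln1 (chr8:124949255-124949504, minus strand) are shown because the genes are among those described next, chosen after the matches were seen. Capitals mark the core word.
Ankrd37: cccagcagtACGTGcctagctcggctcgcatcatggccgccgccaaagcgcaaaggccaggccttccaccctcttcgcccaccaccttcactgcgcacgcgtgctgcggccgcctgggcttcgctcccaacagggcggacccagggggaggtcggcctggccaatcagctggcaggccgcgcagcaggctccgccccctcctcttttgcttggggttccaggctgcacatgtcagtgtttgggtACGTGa
Egln1: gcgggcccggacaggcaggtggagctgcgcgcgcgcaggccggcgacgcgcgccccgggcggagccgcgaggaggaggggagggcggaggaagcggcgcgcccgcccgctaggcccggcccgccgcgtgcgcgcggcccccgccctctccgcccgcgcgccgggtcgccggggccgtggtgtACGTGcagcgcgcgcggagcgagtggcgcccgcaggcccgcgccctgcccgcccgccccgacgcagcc

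Hilpda, a hypoxia-induced inhibitor of lipolysis that is not on the list, had the most negative difference of steps of all genes called. It read 13.38, 13.46 and 13.43 and then 12.11, 12.32 and 11.94 in treated cells. It read 11.04, 10.62 and 10.72 and then 11.81, 11.85 and 11.97 in DMSO cells, and 11.29, 11.09 and 11.39 and then 12.47, 12.08 and 12.67 in untreated cells. Both windows separated in every arm, in opposite directions. It fell 2.46-fold in treated cells (-1.30 ± 0.16; adjusted p = 0.00023) and rose by 1.08 in DMSO (adjusted p = 0.0099) and by 1.15 in untreated cells (adjusted p = 0.0046). The difference was -2.41 ± 0.19 (adjusted p = 1.8e-05). Ankrd37 read 11.15, 11.14 and 11.12 and then 10.52, 10.63 and 11.10 in treated cells, against 8.97, 8.79 and 9.40 and then 10.55, 10.97 and 11.36 in DMSO cells. The treated arrays held from 9 h a level that DMSO cells had from 24 h. Its treated step of -0.39 did not pass the test (adjusted p = 0.38), and the difference was -2.32 ± 0.30 (adjusted p = 0.0011).

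Slc2a1, the glucose transporter GLUT1, read 15.47, 15.64 and 15.57 and then 14.12, 14.77 and 14.08 in treated cells, the later arrays all lower. It fell 2.36-fold (-1.24 ± 0.16; adjusted p = 0.00031), with steps of 0.55 in DMSO (adjusted p = 0.057) and 0.44 in untreated cells (adjusted p = 0.13) and a difference of -1.73 ± 0.20 (adjusted p = 0.00039). At 24 to 48 h it still stood 0.91 above the control arms (adjusted p = 0.0021). Vegfa, the angiogenic growth factor, read 14.82, 14.83 and 14.75 and then 13.72, 13.85 and 13.82. It fell by 1.00 ± 0.14 (adjusted p = 0.00059), with a difference of -1.12 (adjusted p = 0.0046). Egln1, a HIF prolyl hydroxylase that is itself a HIF target, read 12.86, 13.11 and 13 and then 12.27, 12.41 and 12.10, again without overlap. It fell by 0.73 ± 0.16 (adjusted p = 0.011), its 3 probes gave -0.70, -0.81 and -0.73, and it rose by 0.85 in DMSO (adjusted p = 0.016) and by 0.91 in untreated cells (adjusted p = 0.015). Ero1a, an oxidase of the endoplasmic reticulum that hypoxia induces, read 13.23, 13.54 and 13.52 and then 12.45, 12.65 and 12.99, and its difference of steps was -1.75 (adjusted p = 0.0025). Its fall of 0.73 (adjusted p = 0.033) was not called without the treated array at 12, 15, 24 or 36 h, nor that of Egln1 without 12 or 48 h. The other members called in the difference were Bnip3, Bnip3l, Hk1, Hk2, Ndrg1 and Pdk1, named after their values were seen.

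**Figure D3:**
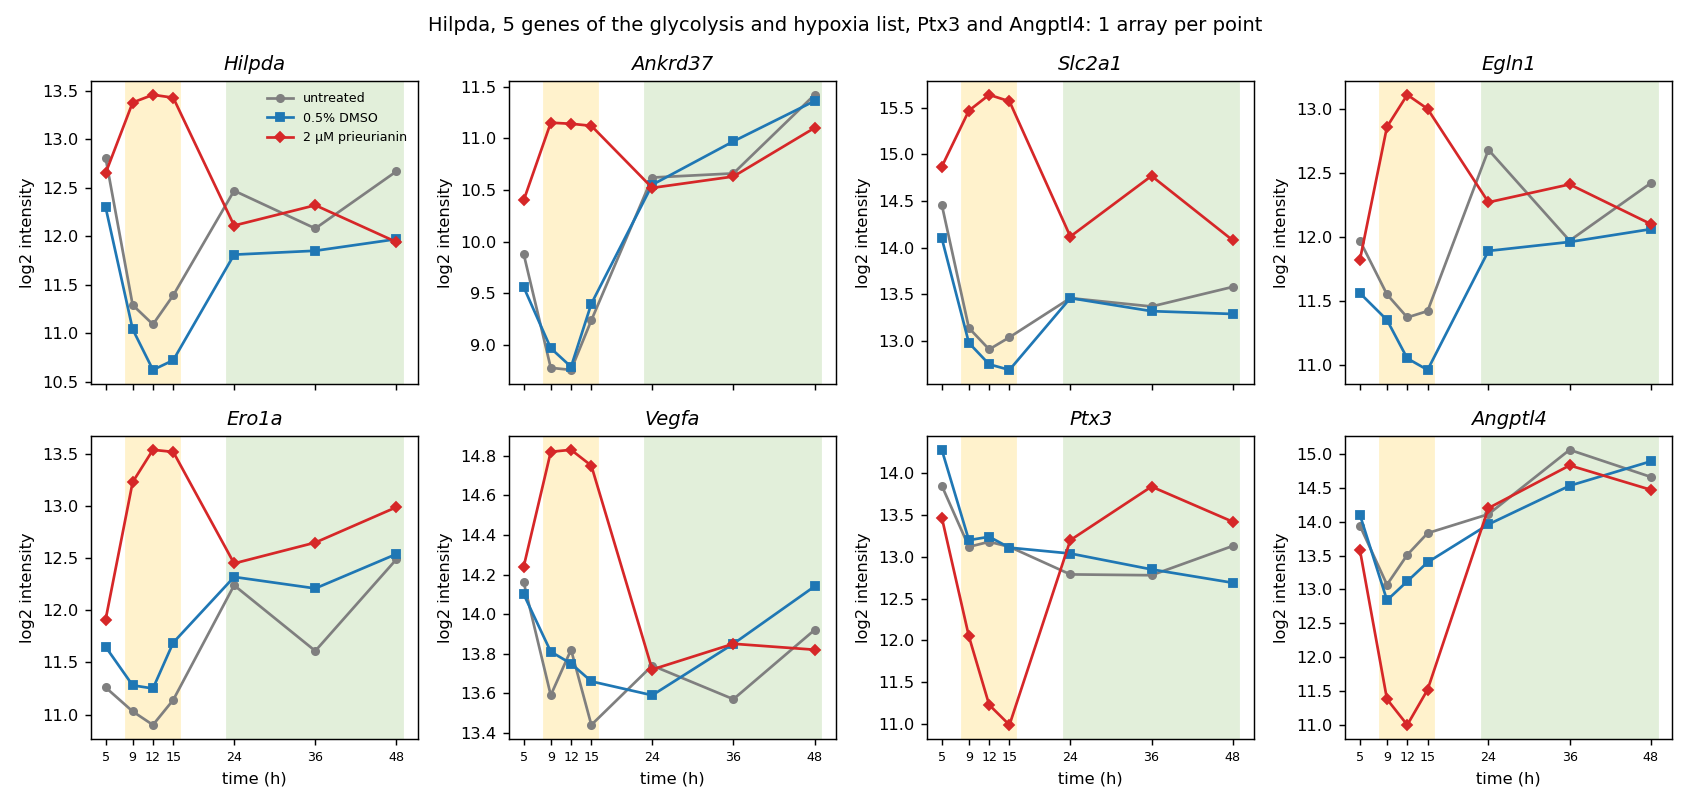
Log2 level of 8 genes on each array from 5 to 48 h by arm, 1 point per array. Hilpda, and the hypoxia list genes Ankrd37, Slc2a1, Egln1, Ero1a and Vegfa, stood higher in prieurianin than in both control arms at 9-15 h; Ptx3 and Angptl4 stood lower at those hours and stood at 13.20 to 14.83 at 24-48 h.

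Genes of several stress responses fell in treated cells. Of 24 genes of ER stress and the amino acid response 10 fell and none was called higher, with a median of -0.56. Over all genes 5.4% rose and 5.08% fell in the treated step, the shares to set beside this and the later list counts. The difference of steps was called negative for 2 of the 24, with a median of -0.24. It was called for 0 with median centring and with the values as deposited (medians -0.03 and -0.1). The DMSO step called 1 higher and 1 lower (median -0.25) and the untreated step 1 higher and 0 lower (median -0.20). The treated list mean was 12.58, 12.58 and 12.36 and then 12.08, 12.03 and 11.95, the later arrays all lower. Slc7a11, the cystine transporter under ATF4 and NRF2, read 10.61, 11.26 and 10.97 and then 9.16, 9.10 and 8.06. It fell by 2.17 ± 0.35 (adjusted p = 0.0013), beside a mean step of -1.21 in the control arms, and 2 other probes gave -1.05 and -1.01 in treated cells. Ppp1r15a (GADD34, which restores translation after stress) read 11.20, 11.63 and 11.00 and then 10.34, 10.29 and 10.09. It fell by 1.04 (adjusted p = 0.0048), with a difference of steps of -1.15 (adjusted p = 0.026). Ddit3 (CHOP, a stress transcription factor) fell by 0.78 (adjusted p = 0.0049), with a difference of -0.86 (adjusted p = 0.027), and Trib3, a pseudokinase under ATF4, by 1.16 (adjusted p = 0.014), a call lost without the treated array at 12, 36 or 48 h. The number of falls was 3 without the treated array at 12 h and 13 without that at 24 h, and median centring left 1 and the values as deposited 4.

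Of 21 NRF2 targets 8 fell in treated cells and none was called higher (median -0.34). In DMSO 5 fell (median -0.28) and in untreated cells 4 (median -0.2), with 6 and 1 under median centring and 0 and 8 as deposited. The difference of steps was called negative for 1 of the 21, with a median of -0.07. Srxn1, which repairs oxidised peroxiredoxins, read 12.33, 12.43 and 12.17 and then 11.26, 10.68 and 10.74. It fell by 1.42 (adjusted p = 0.00012), on 3 probes of -1.42, -1.51 and -1.46, and by 0.68 in DMSO (adjusted p = 0.03) and 0.69 in untreated cells (adjusted p = 0.031). Hmox1, haem oxygenase, read 13.69, 14.01 and 14.11 and then 11.5, 13.18 and 12.81, lowest at 24 h. It fell by 1.44 (adjusted p = 0.0068), with a difference of -1.68 (adjusted p = 0.028). Abcc4, an efflux pump, fell by 1.53 (adjusted p = 0.00017). The list's falls numbered 4 without the treated array at 12 h and 4 with median centring.

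Among immediate early genes, the first to be induced by growth factors and stress, more fell than rose in treated cells. Of 25, the DMSO step called 1 higher and 2 lower and the untreated step 2 higher and 1 lower. In treated cells 1 rose and 8 fell (median -0.41), with 3 falls when the 48 h array was left out. The exception was Egr1, a zinc finger factor of the growth response, which read 9.06, 8.62 and 8.15 and then 9.88, 9.77 and 9.56. It rose by 1.12 (adjusted p = 0.0019), with a difference of steps of 1.00 (adjusted p = 0.038). Dusp1, a MAP kinase phosphatase, fell by 1.17 (adjusted p = 0.002), and Maff, a small Maf factor, by 1.48 (adjusted p = 0.0038). Of 15 heat shock genes 2 fell in treated cells, 2 in DMSO and 1 in untreated cells, with medians of -0.29, -0.29 and -0.27. The median difference of steps was 0.01. Hspa4l, a chaperone of the HSP110 family, fell by 1.33 in treated cells (adjusted p = 0.00027), beside a mean step of -0.97 in the control arms.

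Interferon-response genes were highest in treated cells at 9 h. The mean of 27 genes (of 29) was 11.54, 11.03 and 10.59 in prieurianin, then 11.03, 9.94 and 9.82, so the 24 h array overlapped the earlier window. In DMSO it was 10.57, 10.49 and 10.51, then 10.87, 10.64 and 10.38, and in untreated cells 9.95, 10.04 and 10.06, then 10.33, 10.06 and 9.98. For 21 of the 27 genes the highest array from 5 to 48 h was that at 9 h in prieurianin, beside 1391 of all 12792 genes. In each control arm 17 were highest at 5 h, beside 2319 of all genes in DMSO and 2245 in untreated cells. In the treated step 4 fell and none was called higher (median -0.83); the number of falls was 2 without the 9 h array and 15 without the 24 h array. Usp18, which damps interferon signalling, read 14.19, 13.80 and 13.12 and then 12.51, 11.04 and 10.27. It fell by 2.43 ± 0.44 (adjusted p = 0.0032), and its difference of -1.76 did not pass the test (adjusted p = 0.12). Ifit3, an antiviral effector, read 12.62, 11.96 and 10.52 and then 10.46, 8.53 and 8.44, and fell by 2.55 (adjusted p = 0.0074). Rsad2 (viperin) and Oasl2, both antiviral, fell by 1.94 and 1.46 (adjusted p = 0.02 and 0.027), calls that were lost without the treated array at 9, 12, 36 or 48 h. The difference of steps was below 0 for all 27 genes with a median of -0.73 and was called for 1, Gbp2, a guanylate-binding protein named after its values were seen (-1.85, adjusted p = 0.0086).

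Actin cytoskeleton genes and targets of serum response factor stayed far above the controls, and 9 of them fell. The mean of 27 genes (of 30) was 12.51, 12.45 and 12.42 in prieurianin, then 11.96, 12.49 and 12.07. In DMSO it was 10.67, 10.54 and 10.45, then 10.33, 10.43 and 10.41. No treated array overlapped a control array. In the treated step 1 gene rose and 9 fell (median -0.26), with 3 falls without the 48 h array and 1 with median centring. At 24 to 48 h 22 of the 27 were still called above the control arms and none below (median 1.49), against 24 at 9 to 15 h (median 1.47). Acta1, skeletal alpha-actin, read 9.18, 9.14 and 8.94 and then 7.89, 7.90 and 8.03 in treated cells, where control arrays ran from 4.92 to 5.56. It fell by 1.15 (adjusted p = 0.00025), with a difference of -0.94 (adjusted p = 0.012). Tgfb1i1 (Hic-5, a focal adhesion protein) read 12.82, 13.06 and 12.83 and then 12.05, 12.35 and 11.88. It fell by 0.82 (adjusted p = 0.002), with a difference of -1.08 (adjusted p = 0.0046). Pdlim7, an actin-associated scaffold, fell by 0.93 (adjusted p = 0.0015) on the probe used and by 0.19 on another. Acta2, smooth muscle actin, named after its values were seen, lay at 15.95 to 16 on all 6 treated arrays, at the top of the scale, where no step can be read.

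**Figure D4:**
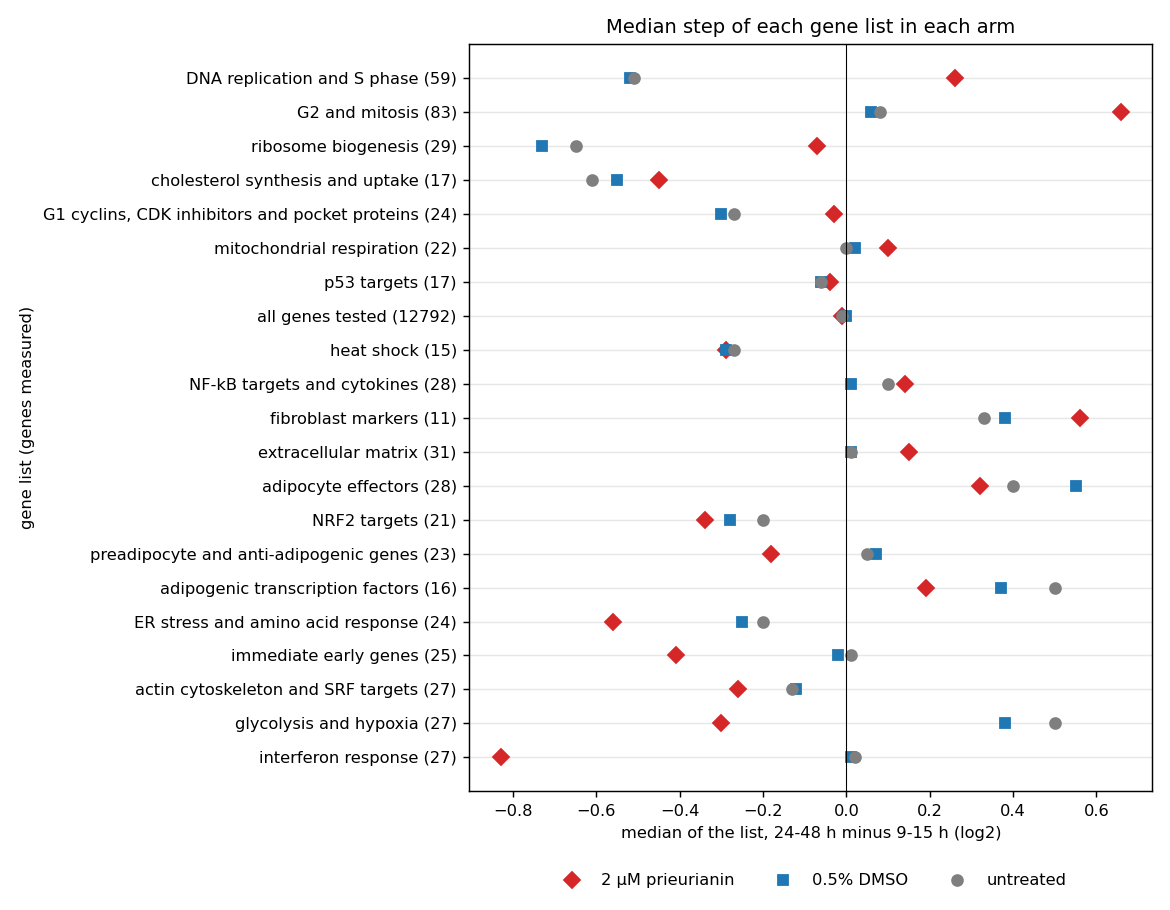
Median log2 step from 9-15 h to 24-48 h of each gene list in the prieurianin, DMSO and untreated arms, 1 point per arm. S phase and ribosome biogenesis genes have negative medians in both control arms and medians of 0.26 and -0.07 in prieurianin; glycolysis and hypoxia genes have positive medians in the control arms and -0.30 in prieurianin.

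Among all genes called with separated windows, Angptl4 had the smallest p of the rises described here. Angptl4, a secreted inhibitor of lipoprotein lipase and a PPAR target, read 11.38, 11.00 and 11.52 and then 14.20, 14.83 and 14.47 in treated cells. In DMSO cells it read 12.84, 13.12 and 13.40 and then 13.96, 14.53 and 14.89. The treated arrays lay below every DMSO array at 9 to 15 h and within the DMSO range afterwards. It rose 9.2-fold (3.20 ± 0.28; adjusted p = 1.6e-05), with a difference of 1.96 ± 0.34 (adjusted p = 0.0086), and 2 dimmer probes gave 0.62 and 0.17. Vcam1, a cell adhesion receptor, read 11.45, 10.93 and 11.26 and then 13.67, 14.01 and 13.88. It rose 6.22-fold (2.64 ± 0.25; adjusted p = 3.2e-05), with steps of 0.89 in DMSO (adjusted p = 0.05) and 0.89 in untreated cells (adjusted p = 0.055) and a difference of 1.74 ± 0.31 (adjusted p = 0.0086). Adamts5, an aggrecan-degrading protease, read 8, 8.04 and 7.28 and then 10.47, 11.26 and 11.39, where DMSO cells read 9.38, 9.88 and 9.70 and then 10.28, 11.03 and 11.41. It rose 9.62-fold (3.27 ± 0.34; adjusted p = 8.2e-05), but 2 other probes gave 1.27 and -0.11. Its difference of 2.02 ± 0.42 (adjusted p = 0.022) was not called without the treated array at 15, 36 or 48 h.

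Il33, a cytokine of the IL-1 family, read 7.82, 6.80 and 5.87 and then 9.48, 10.62 and 10.64. It rose by 3.42 ± 0.47 (adjusted p = 0.0004), and also by 1.71 in DMSO (adjusted p = 0.047) and 2.09 in untreated cells (adjusted p = 0.027). Its difference of 1.52 did not pass the test (adjusted p = 0.2). Wfdc21, a secreted whey acidic protein, read 8.07, 7.65 and 7.39 and then 10.99, 11.10 and 12.99. It rose 15.9-fold (3.99 ± 0.61; adjusted p = 0.00097) and also rose by 2.87 in DMSO (adjusted p = 0.021) and 2.79 in untreated cells (adjusted p = 0.026), so that its difference of 1.16 did not pass the test (adjusted p = 0.48). The other 7 of the 12 largest rises ran from 2.57 to 3.42. They were Serpina3k and Serpina3g (serine protease inhibitors), Cdo1 (cysteine dioxygenase), Aldh1a7 (an aldehyde dehydrogenase), Nid2 (a basement membrane protein), Adamts15 (a protease) and Cacna1g (a calcium channel). Serpina3k also had steps of 2.5 in DMSO and 2.47 in untreated cells, and Cdo1 of 2.42 and 2.38. Their differences of steps of 0.93 and 0.97 did not pass the test (adjusted p = 0.65 and 0.61). The call of Aldh1a7 was lost without the treated array at 12, 15 or 48 h.

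Among the largest falls, H2-M1, an MHC class I gene, read 10.72, 11.57 and 11.84 and then 8.54, 7.91 and 6.48. It fell 13.2-fold (-3.73 ± 0.40; adjusted p = 9.1e-05), beside -2.37 in DMSO and -2.26 in untreated cells. Gipc2, a PDZ adaptor protein, read 11.46, 11.33 and 10.87 and then 8.77, 8.22 and 8.57, far apart. It fell 6.48-fold (-2.70 ± 0.19; adjusted p = 2.3e-06), with a difference of -1.93 ± 0.23 (adjusted p = 0.00047). Inhba, the activin A subunit, read 11.67, 12.71 and 12.70 and then 9.51, 10.78 and 9.09 in treated cells, all above the control arrays, which ran from 7.52 to 8.79. It fell by 2.56 ± 0.34 (adjusted p = 0.00034), with a difference of -2 ± 0.41 (adjusted p = 0.022). Krt16, a stress keratin, read 9.14, 10.55 and 10.38 and then 6.88, 7.43 and 7.29. It fell by 2.83 ± 0.34 (adjusted p = 0.00023), with a difference of -2.06 (adjusted p = 0.021). The differences of Inhba and Krt16 were not called without the treated array at 12, 15 or 24 h, nor that of Inhba without 48 h. Il11, a cytokine of the IL-6 family, read 12.51, 12.50 and 12.36 and then 10.56, 10.00 and 8.79. It fell by 2.67 ± 0.48 (adjusted p = 0.003), beside -2.14 in DMSO and -2.01 in untreated cells. Plaur, the urokinase receptor, read 11.93, 11.99 and 11.75 and then 9.57, 9.71 and 9.27, and fell by 2.37 (adjusted p = 0.00012). Fgl2 (a secreted prothrombinase), Havcr2 (the receptor TIM-3), Pmepa1 (an inhibitor of TGF-beta signalling) and Dusp4 (a MAP kinase phosphatase) fell by 3.58, 2.76, 2.60 and 2.53. The mean step of the control arms was -1.43 for Pmepa1 and -1.49 for Dusp4.

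**Figure D5:**
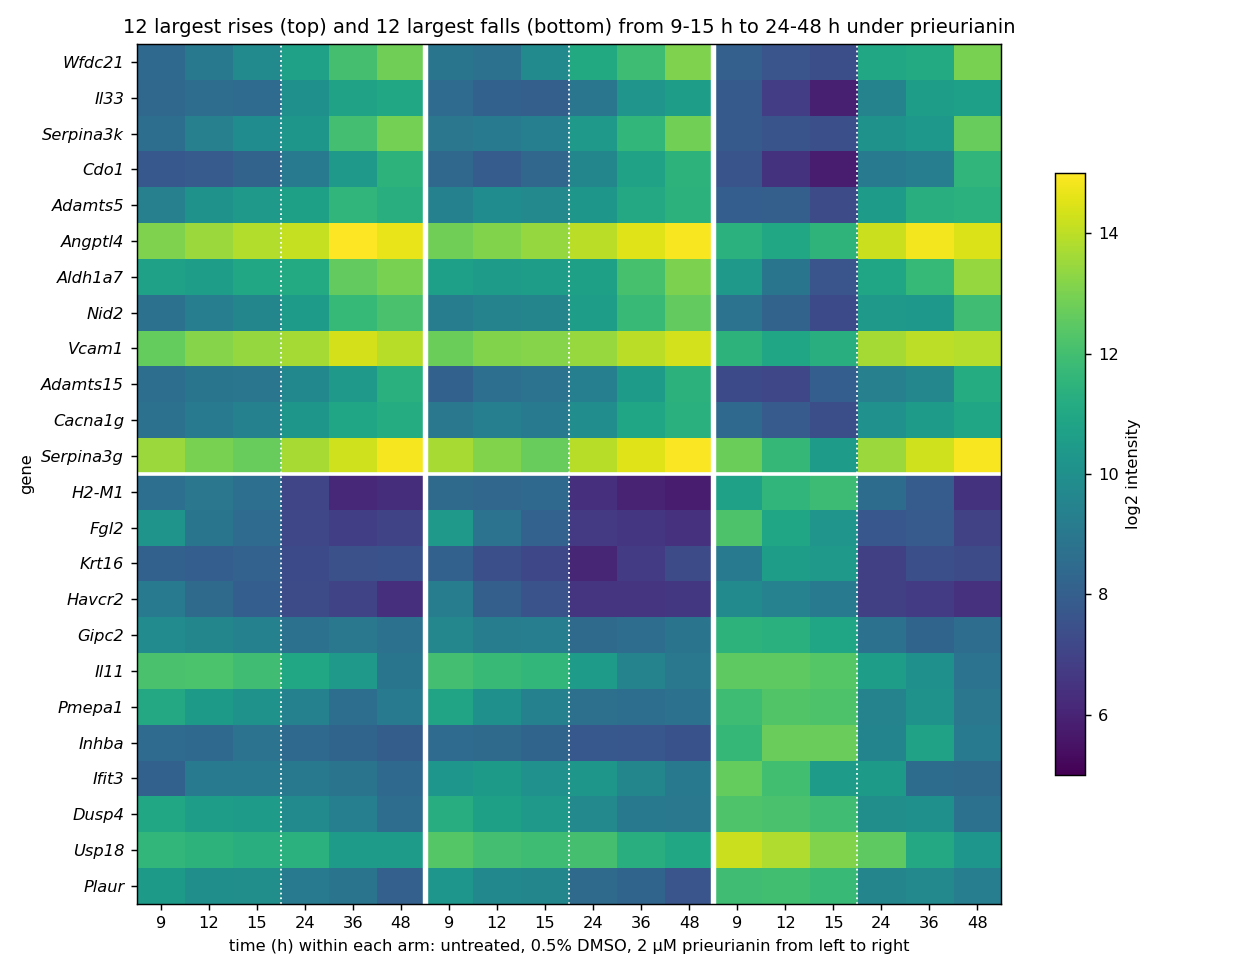
Log2 level (colour, 5 to 15) of the 12 largest rises and 12 largest falls of the prieurianin step on 18 arrays, with untreated, DMSO and prieurianin arrays from left to right at 9, 12, 15, 24, 36 and 48 h. The genes were chosen by the prieurianin step, so the contrast between the treated windows is a description of that choice.

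Among genes called, the most positive difference of steps was that of Ptx3, a secreted pentraxin of the innate response. It read 12.05, 11.23 and 10.99 and then 13.20, 13.84 and 13.42 in treated cells, and 13.20, 13.24 and 13.11 and then 13.04, 12.85 and 12.69 in DMSO cells. The treated arrays at 9 to 15 h lay below all DMSO arrays and those at 24 to 48 h lay near or above the highest of them. It rose 4.19-fold (2.07 ± 0.22; adjusted p = 9.1e-05), a second probe gave 2.14, and the difference was 2.35 ± 0.27 (adjusted p = 0.00043). Ctps, which makes CTP for nucleic acid synthesis, read 12.31, 11.31 and 11.52 and then 12.74, 13.14 and 13. It rose by 1.25 (adjusted p = 0.0041), with a difference of 1.60 ± 0.29 (adjusted p = 0.011). Wdr5b rose by 1.05 (adjusted p = 0.0062), with a step of -0.77 in DMSO and a difference of 1.78 ± 0.26 (adjusted p = 0.003). Bnc1, a zinc finger protein of proliferating epithelia, had a difference of 1.90 (adjusted p = 0.038). Cxcl5, a neutrophil chemokine, had one of 1.67 (adjusted p = 0.025), with treated windows that overlapped. Leaving out the treated array at 12, 15, 24 or 36 h lost both calls, as leaving out any of 8 other arrays did for Bnc1.

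Of the negative differences outside the hypoxia list, F3, the tissue factor that starts coagulation, read 15.05, 14.82 and 14.81 and then 13.99, 14.60 and 14.65 in treated cells. Its treated step of -0.48 did not pass the test (adjusted p = 0.39), it rose by 1.52 in DMSO (adjusted p = 0.019) and by 1.67 in untreated cells (adjusted p = 0.015), and the difference was -2.07 (adjusted p = 0.011). Loxl2, a collagen cross-linking oxidase, read 10.51, 11.28 and 11.22 and then 9.48, 10.41 and 9.86. It fell by 1.09 (adjusted p = 0.036), with a difference of -2.05 (adjusted p = 0.012) that was not called without the treated array at 12 h. Olfr1342, an olfactory receptor gene, had a difference of -2 (adjusted p = 0.042), a call lost in 19 alternatives.

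Some fat cell genes rose in treated cells. Of 16 adipogenic transcription factors 3 rose and none was called lower in treated cells (median 0.19), against 2 higher in DMSO (median 0.37) and 3 higher in untreated cells (median 0.50). With median centring and the values as deposited, 2 rises were called in treated cells under each, 0 in DMSO under both, and 0 and 1 in untreated cells. Pparg, the master regulator of fat cell formation, read 9.90, 9.59 and 9.46 and then 11.08, 10.91 and 11.60, with no overlap. It rose 2.93-fold (1.55 ± 0.27; adjusted p = 0.0025), beside steps of 0.79 in DMSO (adjusted p = 0.098) and 0.80 in untreated cells (adjusted p = 0.1), and its difference of 0.75 did not pass the test (adjusted p = 0.29). Rxra, its dimer partner, rose by 1.00 (adjusted p = 0.017), a call lost without the treated array at 12 or 48 h. Klf4, a factor of the first hours of differentiation, had a treated step of -0.61 (adjusted p = 0.062) and a difference of -1.18 (adjusted p = 0.022). Of 28 adipocyte effector genes the DMSO step called 6 higher and 1 lower (median 0.55). The untreated step called 5 higher and 0 lower (median 0.40). With median centring and the values as deposited neither control step called a rise. In treated cells 3 rose and 1 fell (median 0.32), with 2 and 3 rises under those scalings. The median difference of steps was -0.04. Plin4, a lipid droplet coat protein, rose by 0.93 (adjusted p = 0.0025), beside 1.02 in DMSO and 0.94 in untreated cells, and Scd1, a fatty acid desaturase, fell by 0.87 (adjusted p = 0.016), a call lost without 9, 12 or 48 h. Cav1, the caveolae protein, rose by 0.96 (adjusted p = 0.0018) on a probe saturated on 2 of the 6 treated arrays.

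Of 23 preadipocyte and anti-adipogenic genes the DMSO step called 1 higher and 4 lower and the untreated step 2 higher and 2 lower. In the treated step 4 rose and 7 fell (median -0.18), with 4 falls without the 48 h array and 1 with median centring. Pdgfra and Pdgfrb, the receptors of platelet-derived growth factor on fat cell precursors, rose by 1.77 (adjusted p = 0.00037) and 1.22 (adjusted p = 0.0029). The difference of steps was called positive for 0 of the 23 genes, with a highest value of 0.65, and negative for 2. The rises of Pdgfra and Pdgfrb thus did not differ from the control step by the test. Id3, an inhibitor of differentiation, fell by 0.72 (adjusted p = 0.0021), and Foxc2, a forkhead factor, by 0.84 (adjusted p = 0.0033). Of 17 cholesterol synthesis genes 4 fell (median -0.45), and 7 fell in DMSO and 5 in untreated cells (5 and 0 with median centring, 0 and 12 as deposited). Sqle, squalene epoxidase, read 12.58, 12.53 and 12.32 and then 11.28, 11.40 and 10.68, and fell by 1.36 (adjusted p = 0.0037), beside -1.05 in DMSO (adjusted p = 0.03) and -0.97 in untreated cells (adjusted p = 0.043). Lss, Msmo1 and Dhcr7, later enzymes of the pathway, fell by 1.14, 1.23 and 0.72, calls lost without the treated array at 9 or 48 h. The list's falls numbered 1 without the treated array at 9 h and 1 with median centring.

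Of 31 extracellular matrix genes the DMSO step called 3 higher and 2 lower and the untreated step 4 higher and 1 lower. In treated cells 4 rose and 4 fell (median 0.15), and without the treated array at 12 h 1 was called in each direction. Col6a2, a chain of collagen VI, rose by 0.96 (adjusted p = 0.0024), Fn1, fibronectin, by 0.70 (adjusted p = 0.028), and Mmp3, stromelysin, fell by 1.33 (adjusted p = 0.015). The calls of Fn1 and Mmp3 were lost without the treated array at 9, 36 or 48 h, and that of Fn1 also without 12 or 15 h. Of 28 NF-kB targets and cytokines the DMSO step called 4 higher and 1 lower and the untreated step 4 higher and 0 lower. With median centring these control rises numbered 0 in each, and as deposited 0 and 1. In treated cells 5 rose and 1 fell, with 3 rises without the treated array at 12 h. A positive difference of steps was called for 4 (2 without the treated array at 12 h). Il1rn, the interleukin 1 receptor antagonist, rose by 2.34 (adjusted p = 0.0073). Cxcl12, a chemokine of stromal cells, rose by 1.23 (adjusted p = 0.018), beside 1.19 in DMSO and 1.25 in untreated cells, and its difference of steps was 0.00. The call of Cxcl12 was lost without the treated array at 12, 36 or 48 h. Of 22 genes of mitochondrial respiration each control step called 0 higher and 1 lower. In treated cells 2 rose, where 5.4% of all genes did. Ogdh, a Krebs cycle enzyme, rose by 0.55 (adjusted p = 0.017) and Sdhc, a subunit of complex II, by 0.48 (adjusted p = 0.021). Both calls were lost without the treated array at 12 or 48 h, that of Ogdh also without 9 or 36 h and that of Sdhc without 15 h.

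Over all genes tested, the treated profile at 24 h was closest to a control array of an earlier hour. Its Pearson correlation over 12792 genes was highest with the DMSO array at 15 h (0.988). The treated arrays at 9, 12 and 15 h were closest to DMSO at 9, 9 and 15 h (0.982, 0.972 and 0.968), and those at 36 and 48 h to DMSO at 36 h (0.979 and 0.983). Over the 142 cell cycle genes tested, the treated arrays at 9 and 15 h were closest to DMSO at 5 h and that at 12 h to DMSO at 9 h. The treated array at 24 h was closest to DMSO at 24 h, and those at 36 and 48 h to DMSO at 36 h. Correlations between pairs of these 18 arrays ran from 0.942 to 0.991, so the ranking rests on small differences. Genes are not independent replicates, and no p-value is given.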

How the data were processed

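RNA from 3T3-L1 cells was measured on 54 single-colour arrays, 18 hours in each of 3 arms, amplified and Cy5-labelled per the labels' protocols. The deposited numbers were read as linear intensities because of their range, which ran from -83 to 65497 with 0.47% below 0. Scanner, background correction and scaling are not given in the sources used here, and the number of arrays limits precision. Of 29922 probes, 21020 carried 1 symbol, none several and 8902 none; symbols were updated through RefSeq's gene table of assembly GRCm38.p6 (17558 current, 3410 updated, 52 as annotated).

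From these deposited intensities, values were quantile normalised, floored at 0 and taken as log2(value + 16), which understates folds of dim genes. Each of 16637 genes was read from its brightest probe (3566 had several), and the 12792 with a mean over 6.07, the lower quartile, were tested. Folds and errors come from limma 3.58.1 in R 4.3.3 (lmFit, eBayes; 12 residual degrees of freedom, and 18 for the earlier control step, over 27 arrays); ± is the standard error and adjusted p-values are Benjamini-Hochberg over all genes tested. The tests were tested on simulated data. The differences between arms at matched windows were added after the design was written.

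Named genes were the 12 largest rises and falls of the treated step without overlap, the 8 largest differences of steps in each direction, and the 4 genes of smallest p in each list with a call (8 for the cell cycle lists). The members and the 24 lists were chosen with earlier results of these data known. Alternatives were other scalings, pseudocounts, filters, probe rules, arrays, moderation, controls, a time block and each array left out. Promoters are 250 bases before the first start RefSeq lists for a symbol (4163 symbols had several).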

Additional observations from a re-analysis of the deposited data

Results flagged for a closer look

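Steps that differed between the treated and the control arms were found for 247 genes by the difference of steps (limma adjusted p under 0.05). The largest positive log2 differences were 2.35 for Ptx3, 2.02 for Adamts5, 1.96 for Angptl4, 1.90 for Bnc1, 1.78 for Wdr5b, 1.74 for Vcam1, 1.67 for Cxcl5 and 1.60 for Ctps. The largest negative ones were -2.41 for Hilpda, -2.32 for Ankrd37, -2.07 for F3, -2.06 for Krt16, -2.05 for Loxl2, -2 for Inhba, -2 for Olfr1342 and -1.93 for Gipc2. In the alternatives run for each, the calls of Hilpda, Ankrd37, Gipc2, Angptl4 and Wdr5b were not lost. Those of Ptx3 and Ctps were lost in 1, Vcam1 in 2, F3 and Loxl2 in 3, Krt16 in 6, Adamts5, Cxcl5 and Inhba in 8, Bnc1 in 15 and Olfr1342 in 19. With 3 arrays per window, single arrays were not tested as outliers.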

How the results depend on the processing

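No named gene changed direction in an alternative; over 3159 pairs of named gene and alternative, 2839 kept direction and side of the threshold, 294 lost the call and 26 gained one. Median centring gave 490 calls in the prieurianin step (main 1341, of which 486 were shared), 308 in the DMSO step (main 681), 51 in the untreated step (main 520), 16 in the difference of steps (main 247, all 16 shared), 680 in the lag contrast (main 2020) and 2443 in the earlier control step (main 3734). The values as deposited gave 865, 27, 1265, 68 (65 shared), 2372 and 5807, with the median of all genes at -0.22 in the lag contrast and 0.33 in the earlier control step. Fitted on the 6 arrays of its arm alone, the prieurianin step called 549 genes, the DMSO step 2 and the untreated step 0, with 3059, 3034 and 2277 genes at an unadjusted p under 0.05 by limma. For the difference, all 54 arrays gave 163, DMSO alone as control 67, untreated alone 93, and the pairing by matched time as a block 680, among them all 247. The labels do not say whether hours pair the arms as samples. The deviations at matched hours from the window means correlated from -0.33 to 0.48 between arms. Every pair of arms was positive at 24 h (0.20, 0.43 and 0.48) and at 48 h (0.23, 0.41 and 0.33). Negative values lay at 9, 12, 15 and 36 h. Pseudocounts of 1 and 64, no filter or a filter at the median, the mean of probes and a mean-variance trend moved no count by over 1.5 times. Leaving out 1 array gave 513 to 1532 calls in the prieurianin step, 0 (without DMSO 12 h; 2323 at an unadjusted p under 0.05) to 1059 in the DMSO step, 11 (without untreated 48 h) to 1168 in the untreated step and 82 to 331 in the difference, with list medians of 0.11 to 0.47 for S phase and 0.43 to 0.82 for G2 and mitosis. Saturated probes, such as that of Acta2, and dim genes limit what can be read.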
